A study of Mus musculus with 9 samples.

Results

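The genes described here are 10 genes of MHC class I antigen presentation, out of 18875 genes in the deposited expression table of mouse lungs exposed to PM2.5, fine airborne particulate matter. They were taken by symbol: the class I heavy chains H2-K1, H2-D1 and H2-Q8, the light chain B2m, the peptide transporter genes Tap1 and Tap2, the loading factor Tapbp, the immunoproteasome subunits Psmb8 and Psmb9, and the transactivator Nlrc5. H2-Q8 was selected on its measured TPM in the 3 groups, which were already known to stand apart, so its levels are given as a description without a test. The other 9 genes were chosen by function, but with earlier results of these data known, so their p-values are not free of that choice.

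Lungs of BALB/c mice, wild-type in genotype, gave 9 mRNA libraries in 3 groups of 3. Long-term exposure was PM2.5 given through the nose at 10 mg/kg, 6 times, with 3 days between doses. The short-term group received 1 instillation of the same dose. The PBS group is labelled as a long-term exposure to PBS, so it is a control of duration for the long-term group and the short-term group has none of its own. The labels do not say how long after the last instillation the lungs were taken. Nothing in the labels ties a library to an individual mouse, so p-values below measure only the spread between these libraries, which may be technical.

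MHC class I molecules show short peptides from inside the cell to CD8 T cells and natural killer cells. The proteasome cuts proteins into peptides, the TAP1/TAP2 transporter moves them into the endoplasmic reticulum, and tapasin (Tapbp) helps to load them onto a heavy chain paired with beta-2-microglobulin (B2m). Interferon-gamma is known to raise most of these genes, to exchange constitutive catalytic proteasome subunits for the immunoproteasome subunits encoded by Psmb8, Psmb9 and Psmb10, and to induce NLRC5, a regulator of class I promoters. H2-K1 and H2-D1 are classical heavy chains expressed in nearly all cells, while H2-Q6 to H2-Q9 are a block of near-copies that encode Qa-2 class I molecules.

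The class I heavy chains resemble each other closely, and the stretches below are shown because reads from such sequence can be shared between genes. They are the same 120 bases of exon 3, which encodes the alpha-2 domain of the peptide groove, in GRCm38 (GENCODE M21), read 5′ to 3′ on the coding strand. Capitals mark each base that differs from H2-Q7. The positions are chr17:35439909-35440028 on the plus strand for H2-Q7, chr17:35425571-35425690 on the plus strand for H2-Q6, chr17:35263839-35263958 on the plus strand for H2-D1 and chr17:33999427-33999546 on the minus strand for H2-K1.
H2-Q7: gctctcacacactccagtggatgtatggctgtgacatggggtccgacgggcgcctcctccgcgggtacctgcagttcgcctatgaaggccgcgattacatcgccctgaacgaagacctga
H2-Q6: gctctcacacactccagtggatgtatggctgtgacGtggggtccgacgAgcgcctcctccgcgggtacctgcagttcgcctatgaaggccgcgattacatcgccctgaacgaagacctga
H2-D1: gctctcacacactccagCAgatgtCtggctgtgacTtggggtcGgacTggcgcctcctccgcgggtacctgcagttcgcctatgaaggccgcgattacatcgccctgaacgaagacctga
H2-K1: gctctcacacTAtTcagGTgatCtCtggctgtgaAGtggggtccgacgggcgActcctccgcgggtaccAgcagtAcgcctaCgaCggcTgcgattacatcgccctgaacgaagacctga
In this stretch H2-Q6 differed from H2-Q7 at 2 bases, H2-D1 at 6 and H2-K1 at 15. Over the whole coding sequence H2-Q6 and H2-Q7 were 95.4% identical, and 30.6% of the windows of 50 bases in H2-Q6 occur unchanged in H2-Q7. H2-D1 and H2-K1 were 91.5% identical and shared 10.3% of such windows of H2-D1. The reference is C57BL/6J, which carries another class I haplotype than BALB/c, so TPM of single heavy chain genes is uncertain in this strain. H2-Q8 has no sequence or position here.

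Upstream, 7 of the 10 genes matched an entry of the RefSeq promoter table for GRCm38.p6 (250 bases before to 50 after the start), and 4 are printed for the classical heavy chains and for genes called higher below. H2-K1 (chr17:34000298-34000597, minus strand) and H2-D1 (chr17:35262844-35263143, plus strand) are the heavy chains, which had no call on the values as deposited. The H2-K1 window lies wholly inside the annotated span of that gene (chr17:33996012-34000619). It therefore belongs to a listed start within the span, not to the 5′ end of the span. Tap1 (chr17:34187306-34187605, plus strand) and Psmb8 (chr17:34197945-34198244, plus strand) were called higher after short-term exposure. Capitals mark matches, on either strand, to motifs searched after reading these promoters. The motifs are the interferon-stimulated response element GAANNGAAA, the GAS element TTCNNNGAA, the CCAAT box, the core TGACG of a CRE-like site and the kappa-B site, which is the longest run of capitals in H2-K1 and H2-D1.
H2-K1: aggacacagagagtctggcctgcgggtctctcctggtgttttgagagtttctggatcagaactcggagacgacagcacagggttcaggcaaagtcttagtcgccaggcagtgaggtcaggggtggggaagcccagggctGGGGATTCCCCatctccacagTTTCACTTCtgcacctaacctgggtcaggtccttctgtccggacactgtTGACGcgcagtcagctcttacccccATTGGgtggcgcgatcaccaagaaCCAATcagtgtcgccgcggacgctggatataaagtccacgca
H2-D1: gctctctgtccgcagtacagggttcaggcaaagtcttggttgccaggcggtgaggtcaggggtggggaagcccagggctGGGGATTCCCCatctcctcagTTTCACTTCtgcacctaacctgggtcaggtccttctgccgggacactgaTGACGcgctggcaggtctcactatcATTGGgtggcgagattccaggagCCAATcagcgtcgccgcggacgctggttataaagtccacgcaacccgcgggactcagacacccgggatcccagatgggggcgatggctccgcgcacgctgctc
Tap1: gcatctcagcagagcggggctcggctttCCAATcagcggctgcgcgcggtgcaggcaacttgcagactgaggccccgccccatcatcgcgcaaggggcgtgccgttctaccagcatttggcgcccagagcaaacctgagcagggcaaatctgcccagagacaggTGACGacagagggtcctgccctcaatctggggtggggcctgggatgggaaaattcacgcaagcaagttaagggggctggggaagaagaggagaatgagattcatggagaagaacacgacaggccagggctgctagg
Psmb8: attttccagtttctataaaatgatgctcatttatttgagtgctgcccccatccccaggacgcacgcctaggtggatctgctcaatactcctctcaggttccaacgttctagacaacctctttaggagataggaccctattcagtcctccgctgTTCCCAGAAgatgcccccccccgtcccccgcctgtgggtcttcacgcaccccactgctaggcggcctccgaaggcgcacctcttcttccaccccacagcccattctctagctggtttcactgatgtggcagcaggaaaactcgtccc
H2-K1 and H2-D1 each hold the kappa-B site, the interferon-stimulated response element, TGACG and 2 CCAAT boxes in the same order. Of 32851 RefSeq promoter windows of 300 bases, 0.0304% hold that kappa-B site, 7.52% the interferon-stimulated response element, 8.3% the GAS element, 37.4% CCAAT and 20.8% TGACG. The Tap1 window holds 1 CCAAT box and 1 TGACG, and the Psmb8 window holds 1 GAS element and none of the other 4 motifs. Tap1 and Psmb9 are transcribed in opposite directions from starts 226 bases apart, so their 2 promoter windows share 275 bases. A match describes letters only and is not evidence of binding.

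Positions come from the RefSeq annotation of GRCm38.p6. Psmb9 (chr17:34182030-34187330), Tap1 (chr17:34187556-34197225), Psmb8 (chr17:34198195-34201454) and Tap2 (chr17:34204479-34216321) lie side by side in the class II region of the MHC. Tapbp (chr17:33919478-33929290) and H2-K1 (chr17:33996012-34000619) lie before them and H2-D1 (chr17:35263094-35267497) after them. B2m (chr2:122147687-122153082) and Nlrc5 (chr8:94434335-94527272) are outside the MHC. The table gives H2-Q8 under gene ID 15019 and H2-K1, H2-D1 and B2m under 14972, 14964 and 12010. Tap1, Tap2 and Tapbp are 21354, 21355 and 21356, Psmb8 and Psmb9 are 16913 and 16912, and Nlrc5 is 434341.

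Levels were read in TPM, the share of a library's transcripts that a gene takes, corrected for transcript length. In PBS lungs H2-K1 was the most abundant of the 10 genes at 2416 ± 542 TPM (mean ± SD, n = 3), followed by B2m at 1329.5 ± 101 and H2-D1 at 1315 ± 235, and the ranges of B2m and H2-D1 overlapped. Tapbp was next at 128 ± 11.4 TPM, above Psmb8 at 92.8 ± 13.1. H2-Q8 (79.7 ± 43.9), Psmb9 (78.8 ± 10.9) and Tap2 (66.8 ± 8.69) overlapped with each other, and the range of H2-Q8, 31.15 to 117 TPM, also took in that of Psmb8. Tap1 followed at 27.9 ± 4.07 TPM, and Nlrc5 was the lowest at 3.19 ± 0.96.

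Several facts of the whole table bear on these genes. The short-term libraries reached 1 TPM in 12560 to 13414 genes against 13534 to 13930 in the other 6. Their long transcripts were also lower, with genes in 5 groups by length and values in log2 relative to the mean of the PBS libraries. The longest group minus the shortest was -1.43, -0.65 and -0.87 in short-term libraries 1 to 3 and -0.20 to 0.04 in the others. PBS libraries lie near 0 on this measure by construction. Member results are therefore given as deposited and also corrected for length and GC content of the transcript, which leaves out H2-Q8. Against PBS, the median of all 13991 tested genes was -0.34 in the short-term and 0.03 in the long-term group on the log2(TPM + 1) scale, and -0.02 and -0.07 after the correction. Summed neutrophil markers (7 genes) were 340 to 543 TPM in PBS, 958 to 1477 in short-term and 338 to 557 in long-term libraries, and summed macrophage markers (9 genes) were 335 to 373, 663 to 735 and 855 to 1245. T cell markers (103 to 134, 92.5 to 146 and 108 to 158 TPM in PBS, short-term and long-term libraries) and natural killer and cytotoxic cell markers (79.9 to 158, 89.2 to 123 and 75.5 to 113) overlapped between groups. Some lung markers also moved with the short-term group without overlap. Alveolar epithelium summed to 50595 to 50785 TPM in PBS and 38447 to 42696 in short-term libraries, airway epithelium to 147870 to 184343 and 107788 to 129417, and dendritic cells to 58.2 to 68.4 and 88.4 to 119.5, with 70.1 to 82.9 in long-term libraries. Endothelial markers were lower in both exposed groups, at 3954 to 4276 TPM in PBS, 3070.4 to 3529 in short-term and 2701 to 3009 in long-term libraries. None of these markers was at 0 in any library, and their part in the results below was not tested. A sum can hide single genes. Of the 7 dendritic cell markers 1 (Fscn1) was called higher and 1 (Clec9a) lower after short-term exposure, with a median log2 difference of -0.04. Of the 9 macrophage markers 5 were called higher there and 1 (Siglecf) lower. Among all tested genes 11.7% were called higher and 40.3% lower. In whole lung, more or fewer cells of a type and more or less RNA per cell cannot be told apart.

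**Figure D1:**
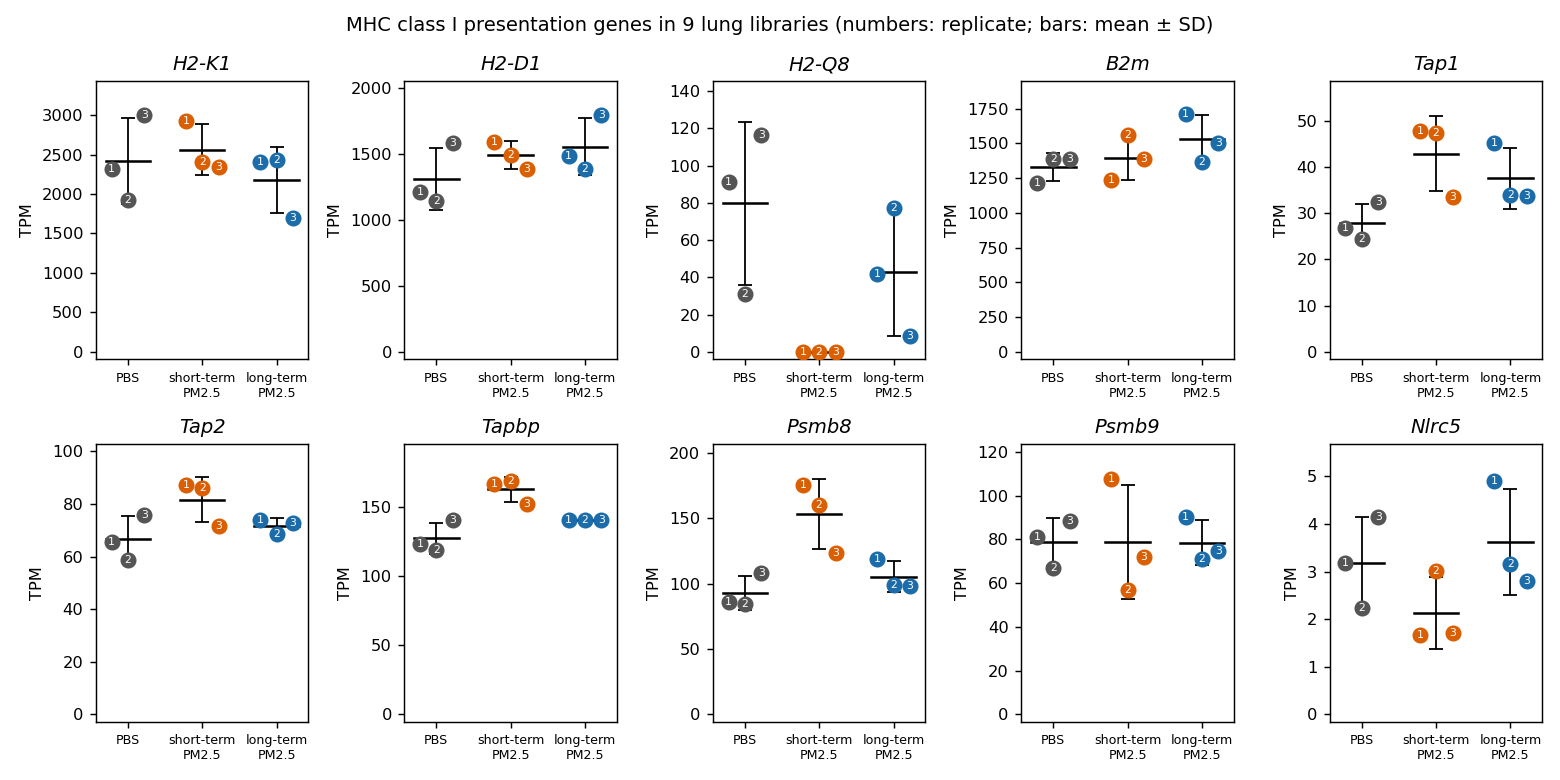
TPM of the 10 class I presentation genes in each library (numbered dots, n = 3 per group), with the group mean and SD as black lines. H2-Q8 is listed at 0 in all 3 short-term libraries, Psmb8 and Tapbp are highest in the short-term group, and H2-K1, H2-D1 and B2m overlap between groups.

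After 1 instillation of PM2.5, 3 of the 9 tested genes rose against PBS: Psmb8, Tap1 and Tapbp. None fell. Among all tested genes 11.7% were called higher and 40.3% lower (adjusted p under 0.05, limma with Benjamini-Hochberg adjustment over 13991 genes). The median log2 difference of the 9 genes was 0.20, against -0.34 over all tested genes. With values corrected for length and GC content Tap2 was called as well, giving 4 of 9 higher and 0 lower beside 23.7% higher and 26% lower of all genes, and the median of the 9 was 0.34 against -0.02. The short-term and PBS ranges did not overlap in those first 3 genes, all higher, beside 14.5% of all tested genes higher and 45.8% lower without overlap. Under median-ratio scaling, which moves the median of all genes to -0.05, H2-D1 (0.55), B2m (0.42) and Tap2 (0.64) also passed, for 6 genes in all. In that setting 3421 of 13991 tested genes were called higher and 3885 lower. All differences are on the log2(TPM + 1) scale, which understates changes of low genes such as Nlrc5.

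The classical heavy chains H2-K1 and H2-D1 did not pass as deposited. H2-K1 stood at 2319.9, 1929 and 2999 TPM in PBS libraries 1 to 3 and at 2929, 2409.98 and 2345 in the short-term libraries. The short-term values lie inside the PBS range. The log2 difference was 0.10 ± 0.19 (SE, adjusted p = 0.676, limma), and it was -0.03 with the correction, -0.42 under quantile normalization, where it passed (adjusted p = 0.0389), and 0.45 under median-ratio scaling. H2-D1, at 1213, 1148 and 1584 TPM in PBS and 1596, 1495 and 1387 after short-term exposure, differed by 0.20 ± 0.15 (adjusted p = 0.288, limma), and by -0.22 under quantile normalization. B2m, the light chain of every class I molecule, held 1213 to 1389.9 TPM in PBS and 1239 to 1557 in short-term libraries, a difference of 0.07 ± 0.13 (adjusted p = 0.685, limma) that turned to -0.16 after the correction. The ratio of B2m to the sum of H2-K1 and H2-D1 overlapped between PBS (0.303 to 0.450) and short-term libraries (0.274 to 0.399).

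Peptide transport and loading held 2 of the 3 genes that rose. Tap1, a subunit of the peptide transporter, was at 26.8, 24.5 and 32.4 TPM in PBS and at 47.8, 47.3 and 33.5 in the short-term libraries. The third short-term library sat just above the highest PBS library, and the groups did not overlap. Its difference was 0.59 ± 0.18 (adjusted p = 0.0201, limma) and 0.84 ± 0.17 after the correction (adjusted p = 0.00236). The call was lost without PBS library 1 (adjusted p = 0.0636, limma) or PBS library 2 (0.0744). Tapbp, the bridge between transporter and heavy chain, was at 123, 119 and 141 TPM in PBS and 167, 169 and 152 after short-term exposure, again without overlap. It rose by 0.35 ± 0.10 (adjusted p = 0.0164, limma), or 0.59 ± 0.09 after the correction (adjusted p = 0.000396), and missed the threshold without PBS library 1 (0.0626) or 2 (0.0539) and in a fit of these 2 groups alone (0.0548). Tap2, the partner of Tap1, was at 65.6, 58.7 and 76.0 TPM in PBS and 87.3, 85.9 and 71.7 in the short-term group. Short-term library 3 fell inside the PBS range, and the difference of 0.29 ± 0.13 (adjusted p = 0.0795, limma) passed only with the correction (0.61 ± 0.11, adjusted p = 0.00162), median-ratio scaling or quantile normalization among the settings that keep all libraries. Tap2 was not called in the uncorrected fit with all libraries. Over 9 such fits that each left out a library, its adjusted p ran from 0.0495 to 0.240 (limma).

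The immunoproteasome subunits split. Psmb8, which replaces the constitutive subunit Psmb5 in the immunoproteasome, was at 86.2, 84.4 and 108 TPM in PBS and at 175, 161 and 124 in short-term libraries. All 3 short-term libraries lay above all PBS libraries, and the difference of 0.71 ± 0.16 (adjusted p = 0.00467, limma) passed in 21 of 21 alternatives, at 0.49 to 1.06. Psmb9, which replaces Psmb6 and shares its promoter region with Tap1, was at 81.2, 66.9 and 88.2 TPM in PBS and at 108, 57.0 and 71.95 after short-term exposure. The short-term libraries held both the highest and the lowest value of these 6. The difference was -0.04 ± 0.21 (adjusted p = 0.890, limma) and -0.26 after the correction (adjusted p = 0.247). With the correction and without short-term library 1, an alternative chosen after seeing the data, it was -0.49 (adjusted p = 0.0115, limma).

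Nlrc5, the class I transactivator, was at 3.19, 2.23 and 4.15 TPM in PBS and at 1.67, 3.01 and 1.72 in the short-term libraries, with overlap. It is the longest transcript of the 9, at 7578 bases. Its difference was -0.42 ± 0.24 as deposited (adjusted p = 0.159, limma) and 0.34 ± 0.19 when corrected (adjusted p = 0.162), so its direction after short-term exposure was not settled. Without short-term library 2 the uncorrected difference was -0.61 (adjusted p = 0.0371, limma).

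**Figure D2:**
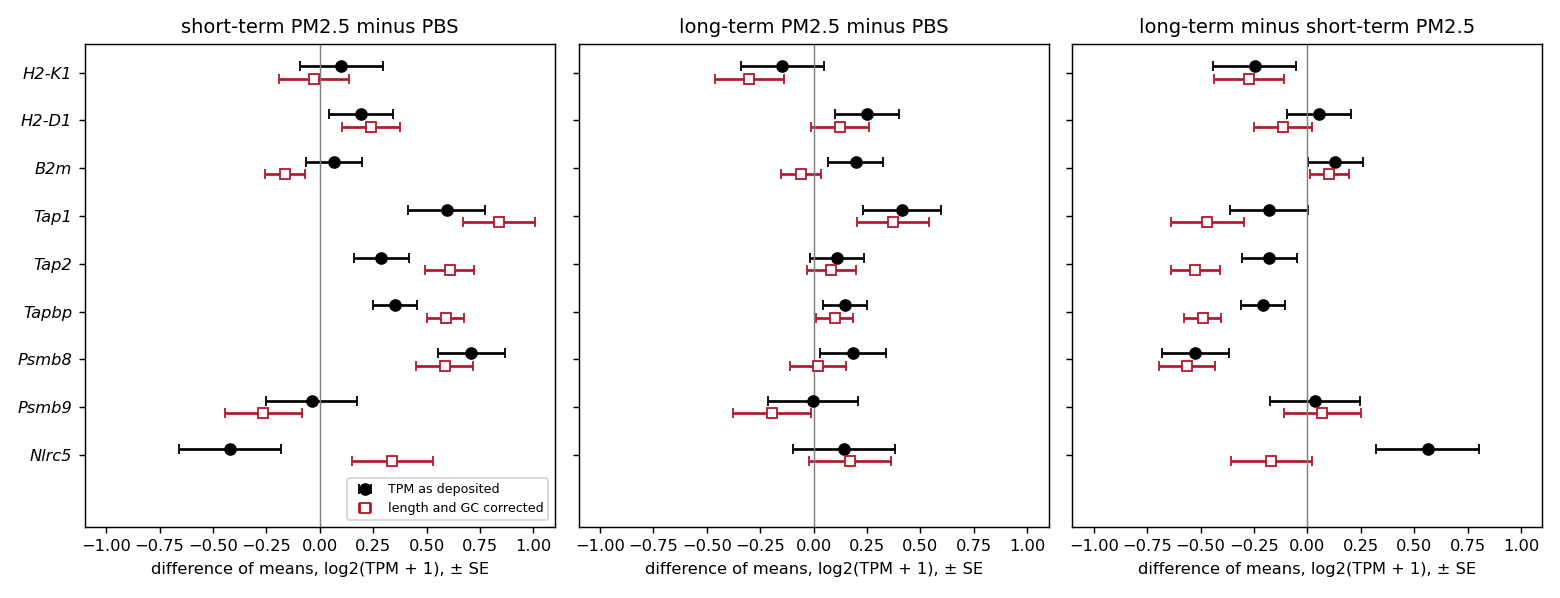
Differences of group means on the log2(TPM + 1) scale with standard errors for the 9 tested genes in the 3 comparisons, as deposited (filled circles) and after the length and GC correction (open squares). Tap1, Tap2, Tapbp and Psmb8 lie right of 0 for short-term exposure and left of 0 for long-term against short-term, and Nlrc5 changes side with the correction in both.

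H2-Q8 had the pattern for which it was included. It was at 91.4, 31.15 and 117 TPM in PBS, was listed at 0 in short-term libraries 1, 2 and 3, and had 42.0, 77.3 and 8.65 TPM in long-term lungs. The PBS and long-term ranges overlapped, and the spread within each was large: the highest PBS library had 117 TPM against 31.15 in the lowest, and the long-term libraries ran from 8.65 to 77.3. No fold is given against a group listed at 0, and read numbers are not known from TPM, so how many reads lie behind any of these values is unknown.

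None of the near-copies of H2-Q8 was called lower after short-term exposure. H2-Q6 was at 91.5, 98.1 and 131 TPM in PBS and at 144, 141 and 123 in the short-term libraries, a difference of 0.36 ± 0.15 (adjusted p = 0.0593, limma) that reached 0.40 with the correction (adjusted p = 0.0246). H2-Q7 was at 88.4, 75.0 and 124 TPM in PBS and 90.7, 75.5 and 67.7 after short-term exposure, with no call (-0.27 ± 0.23, adjusted p = 0.343). H2-Q9 was at 2.28, 0 and 0 TPM in PBS and at 2.90, 3.10 and 6.13 in the short-term group, without a call (adjusted p = 0.130). Summed over H2-Q6, H2-Q7, H2-Q8 and H2-Q9, the block held 204 to 371 TPM in PBS, 197 to 237 in short-term and 180 to 264 in long-term libraries. The 3 ranges overlapped, and the means were 283, 218 and 232 TPM. H2-Q6 and H2-Q7 alone summed to 173 to 255 TPM in PBS and 191 to 235 in short-term libraries. H2-Q8 was 15.3% to 33.4% of that sum in PBS, 4.81% to 29.3% in long-term libraries and 0% in short-term libraries. Whether reads moved between these copies was not tested, since read assignments were not used here.

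**Figure D3:**
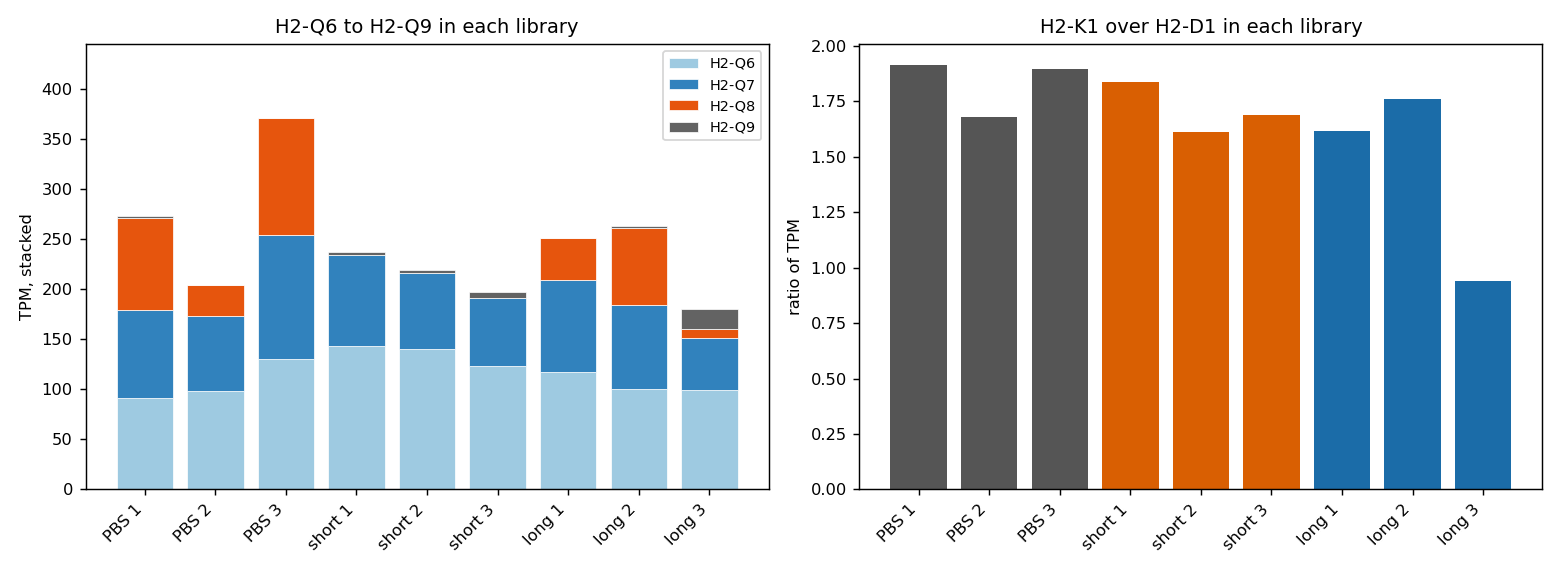
Left, stacked TPM of H2-Q6, H2-Q7, H2-Q8 and H2-Q9 in each of the 9 libraries; right, the ratio of H2-K1 to H2-D1 TPM in each library. The H2-Q8 segment is missing in the 3 short-term libraries, where the stack is 197 to 237 TPM against 204 to 371 in PBS. The ratio is 0.940 in long-term library 3 against 1.61 to 1.91 in the others.

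After 6 instillations, 0 of the 9 genes passed against PBS, while 9.51% of all tested genes were called higher and 1.72% lower. With the correction it was again 0 of 9, beside 12.9% higher and 12.6% lower. The largest difference was that of Tap1, at 45.2, 33.9 and 33.7 TPM against 26.8, 24.5 and 32.4 in PBS. Its groups did not overlap, but the difference of 0.41 ± 0.18 had an adjusted p of 0.208 (unadjusted 0.0443, limma), and the adjusted p was 0.0492 only when these 2 groups were fitted alone. Tap1 was the one gene of the 9 with an unadjusted p under 0.05. Tapbp also did not overlap, by a margin smaller than 1 TPM: the long-term libraries stood at 141.1, 141.3 and 140.9 TPM and the highest PBS library at 140.6. Groups did not overlap in 2 of the 9 genes, both higher, beside 25.9% higher and 17.4% lower of all tested genes.

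The remaining long-term values lay close to PBS. Psmb8 was at 119, 99.3 and 97.9 TPM (0.18 ± 0.16, adjusted p = 0.616, limma) and Psmb9 at 90.2, 70.8 and 74.6 TPM (-0.00 ± 0.21, adjusted p = 0.997). Tap2 was at 73.9, 68.6 and 72.7 TPM, inside the PBS range. H2-D1, at 1489, 1385 and 1799.8 TPM, and B2m, at 1714, 1363 and 1504, had adjusted p of 0.402 and 0.470 for differences of 0.25 and 0.20, and B2m changed sign to -0.06 with the correction. H2-K1 was at 2403, 2437 and 1692 TPM, with the lowest of all 9 libraries in long-term library 3, and its difference of -0.15 ± 0.19 turned to 0.03 without that library and to 0.02 without PBS library 3. Nlrc5, at 4.90, 3.17 and 2.81 TPM, differed by 0.14 ± 0.24 (adjusted p = 0.847, limma). A difference that misses the threshold does not show that a gene was unchanged.

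Between the exposures, Psmb8 was lower after 6 instillations than after 1 by both the test and the ranges, 97.9 to 119 TPM against 124 to 175. The difference was -0.53 ± 0.16 (adjusted p = 0.0193, limma), beside 7.08% of all tested genes called lower and 43.4% higher. It was 1 call among 9, and it was lost without long-term library 2 (adjusted p = 0.0651) or 3 (0.0666). With the correction Psmb8 (-0.56, adjusted p = 0.00706), Tap1 (-0.47, 0.0466), Tap2 (-0.52, 0.00500) and Tapbp (-0.49, 0.00166) were all called lower in the long-term group, beside 22.3% lower and 19.2% higher of all genes. Tap1 was not called there without short-term library 1, which had the steepest length trend, and 3 genes passed then. Tapbp was also the second gene whose groups did not overlap, at 140.9 to 141.3 TPM against 152 to 169, with 9.94% of all tested genes lower and 50.2% higher without overlap. Because each comparison uses a group that another comparison uses, the values of the 3 comparisons are not independent.

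Many proteasome genes outside the set also rose after short-term exposure. Psmb10, the remaining immunoproteasome subunit, was at 78.4 to 103 TPM in PBS and 124 to 202 in short-term libraries (0.69 ± 0.18, adjusted p = 0.0110, limma), and the activator subunits Psme1 and Psme2 rose by 0.63 and 1.15. In that list 4 of 6 genes rose and 0 fell, with a median of 0.66, beside 11.7% higher and 40.3% lower of all tested genes. In the long-term group 0 of 6 passed in limma as deposited, with 0 at an unadjusted p under 0.05. There 9.51% of all tested genes were called higher and 1.72% lower. The constitutive catalytic subunits Psmb5, Psmb6 and Psmb7, which the immunoproteasome subunits replace, rose in 3 of 3 cases by 0.91, 0.73 and 0.54, and so did 7 of 11 other core subunits. With the correction these differences were smaller, at 0.45 for Psmb10, 0.32 for Psme1, 0.81 for Psme2, 0.54 for Psmb5, 0.33 for Psmb6 and 0.37 for Psmb7, and each was still called. Under median-ratio scaling, quantile normalization or without short-term library 1, 11 of those 11 were called, and no proteasome gene was called lower. Of 13991 tested genes 3421, 3477 and 1957 were called higher in these 3 settings, in that order, and 3885, 3745 and 5263 lower. With the correction 23.7% of all genes were called higher and 26% lower. Within each library Psmb8 relative to Psmb5 was 0.804 to 1.08 in PBS and 0.705 to 0.833 in short-term libraries, which overlap. Psmb9 relative to Psmb6 was 0.430 to 0.562 in PBS, 0.216 to 0.362 in short-term and 0.363 to 0.430 in long-term libraries, so PBS and short-term libraries did not overlap. Psmb10 relative to Psmb7 overlapped, with 2.0 in short-term library 1 and 0.823 and 1.04 in the other 2. Tap1 relative to Psmb9, the pair with adjoining starts, was 0.330 to 0.367 in PBS, 0.444 to 0.830 in short-term and 0.452 to 0.501 in long-term libraries, above PBS in all 6 exposed libraries. The ratios are given as values without a test, and an exact permutation test of 3 against 3 libraries could not give p below 0.1.

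**Figure D4:**
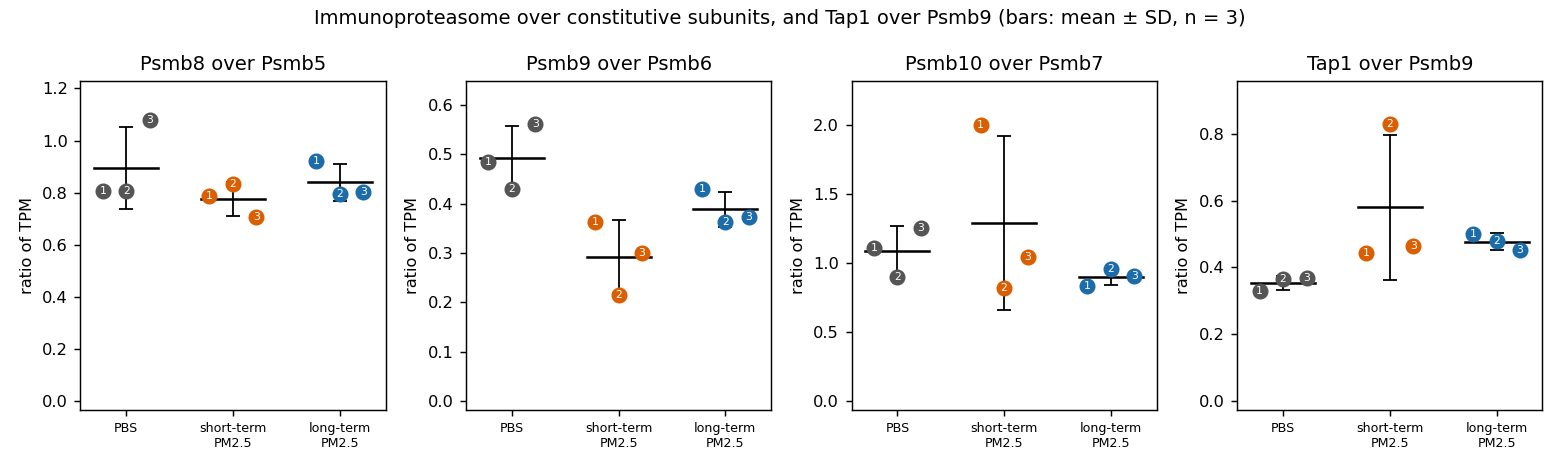
Ratios of TPM within each library (numbered dots, n = 3 per group) with group mean and SD. Psmb9 over Psmb6 is lower in the short-term than in the PBS libraries and Tap1 over Psmb9 is higher in both exposed groups than in PBS, while Psmb8 over Psmb5 and Psmb10 over Psmb7 overlap.

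Peptide loading and trimming genes outside the set moved in both directions in the short-term group, 5 of 15 up and 2 down with a median of 0.26. Over all tested genes 11.7% were higher and 40.3% lower, with a median of -0.34. The chaperone gene Calr, at 606 to 625 TPM in PBS and 959 to 1064 in short-term libraries, rose by 0.72 ± 0.09 (adjusted p = 0.000381, limma), the disulfide isomerase gene Pdia6 rose by 0.90, and the translocon genes Sec61g, Sec61b and Sec61a1 rose by 1.20, 1.13 and 0.92. These serve protein entry and folding in the endoplasmic reticulum in general, as well as class I loading. The trimming peptidases Erap1 (-0.81, adjusted p = 0.0339) and Lnpep (-1.21, adjusted p = 0.00428) were called lower, but their differences were -0.04 and -0.22 with the correction, and neither was called. Lnpep was still called under median-ratio scaling (-1.01) and quantile normalization (-0.86), where Erap1 was not (-0.49 and -0.37). With the correction 11 of 15 rose and 0 fell, beside 23.7% higher and 26% lower of all genes. In the long-term group 0 of 15 passed in limma, with 1 at an unadjusted p under 0.05. There 9.51% of all tested genes were called higher and 1.72% lower.

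Of 16 other class I heavy chain genes tested, 0 rose and 4 fell after short-term exposure in limma, with 7 at an unadjusted p under 0.05 and a median of -0.25. Over all tested genes 11.7% were higher, 40.3% were lower and the median was -0.34. The 4 that fell were the CD1d lipid presenter Cd1d1 (-0.74), the metabolite presenter Mr1 (-0.94), H2-Q4 (-0.49) and H2-T24 (-0.54). All of them but H2-T24 were also called with the correction, as was H2-Q2 (-0.65, adjusted p = 0.00202, limma), while H2-Q6 was called higher. There 26% of all genes were called lower and 23.7% higher. Under median-ratio scaling H2-Q4 and H2-T24 were not called (-0.14 and -0.20), and the median of the list was 0.04. Under quantile normalization Cd1d1 (-0.27) and H2-T24 (-0.31) were not called. H2-T23, which encodes Qa-1, did not pass at -0.08 ± 0.20 (adjusted p = 0.742, limma). In the long-term group H2-M2 was called higher (1.57 ± 0.40, adjusted p = 0.0295, limma), at 2.94, 2.95 and 11.2 TPM against 0.46 to 1.56 in PBS.

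Regulators of class I transcription gave 3 calls up and 11 down among 22 in the short-term group, with a median of -0.38, beside 11.7% higher, 40.3% lower and a median of -0.34 over all tested genes. Among the 22 there were 3 up and 6 down with the correction, beside 23.7% higher and 26% lower of all genes. With median-ratio scaling 3 were up and 7 down (median -0.04), beside 3421 higher and 3885 lower of 13991 tested genes. Those up were Nfkb2 (0.98), Relb (0.69) and Irf7 (1.14), of which the first pair are NF-kappa-B subunits of the alternative pathway. Nfya, a subunit of the factor that binds CCAAT boxes, was among those down (-0.92, and -0.50 when corrected). Irf1, which binds interferon-stimulated response elements, was at 107 to 133 TPM in PBS and 75.9 to 84.4 in short-term libraries (-0.56 ± 0.12, adjusted p = 0.00389, limma), with -0.49 when corrected and -0.21 under median-ratio scaling, where it missed the threshold (adjusted p = 0.203). In the long-term group 0 of 22 passed in limma as deposited, with 5 at an unadjusted p under 0.05. Of all tested genes 9.51% were called higher there and 1.72% lower. With the correction Irf1 was called lower (-0.51, adjusted p = 0.00530, limma) and Nfkb2 higher (0.49, adjusted p = 0.0399), beside 12.6% lower and 12.9% higher of all genes.

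Interferon-gamma itself could not be tested, since Ifng stayed between 0 and 0.66 TPM in all 9 libraries. Among 17 genes known to be induced by it, 3 rose and 3 fell after short-term exposure. Over all tested genes 11.7% were called higher there and 40.3% lower. The chemokine genes Cxcl10 (3.15 ± 0.41, adjusted p = 0.000433, limma) and Cxcl9 (1.18) and the GTPase gene Tgtp1 (1.46) rose. The class II transactivator Ciita (-0.83) and the guanylate-binding protein genes Gbp4 (-1.33) and Gbp7 (-1.34) fell. With the correction Gbp4 (-0.70) and Gbp7 (-0.57) were still called and Ciita was not (-0.18), while Ciita was called under median-ratio scaling (-0.54) and quantile normalization (-0.37). Cxcl9 (0.84) and Tgtp1 (1.46) were also higher in the long-term group, where 2 of 17 were called. That stands beside 9.51% of all tested genes called higher and 1.72% lower. Of 10 tested interferon ligand, receptor and signalling genes 2 rose and 3 fell after short-term exposure as deposited, and 5 rose and 0 fell under median-ratio scaling. Under that scaling 3421 of 13991 tested genes were called higher and 3885 lower, against 11.7% and 40.3% as deposited. The feedback inhibitor Socs3 rose by 1.69 after short-term and by 0.80 after long-term exposure, and Socs1, which rose by 0.82 after short-term exposure, was lower in the long-term than in the short-term group (-0.89, adjusted p = 0.00391, limma). A list of 11 tested genes was drawn up as receptors for class I molecules, though Fcgrt and Lilrb4a are not established as such. In it the inhibitory myeloid receptors Lilrb4a (2.07 and 2.05) and Pirb (0.73 and 0.80) were higher in the short-term and long-term groups. As deposited no other gene of the list was called against PBS. With the correction Fcgrt (-0.24) and Klra7 (-0.51) were called lower in the short-term group. Pooled over the 111 tested pathway genes outside the set, 29 rose and 23 fell in the short-term group, where 11.7% of all tested genes were higher and 40.3% lower. In the long-term group 6 rose and 0 fell, beside 9.51% and 1.72%. With the correction the counts were 42 up and 15 down, beside 23.7% and 26%, and 11 up and 2 down, beside 12.9% and 12.6%.

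Genes with the profile most like that of H2-Q8 over the 9 libraries were sought by the root mean square of centred log2(TPM + 1) differences, as a description. The nearest were Zfp366 (1.58), Psme2b (1.59), Trim56 (1.62), Scube2 (1.65) and Abi3bp (1.68), none of them close. Psme2b was at 27.2 to 28.0 TPM in PBS, 1.91 to 3.83 in short-term and 20.0 to 29.1 in long-term libraries. Psme2, a gene of similar name, was at 157 to 166, 286 to 419 and 184 to 219 TPM. Summed, Psme2 and Psme2b were at 184 to 193 TPM in PBS, 288 to 423 in short-term and 205 to 248 in long-term libraries. Their sequences were not compared, and sharing of reads between them was not tested. For Nlrc5 the nearest were Mndal (0.10), Prkcb (0.11), B3gnt5 (0.11), Irf4 (0.12) and Syt15 (0.13).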

How the data were processed

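Whole-lung mRNA was selected with oligo(dT) beads, and the libraries went through DSN processing, a treatment that lowers abundant transcripts, before DNBSEQ sequencing, per the labels' protocols. Its evenness between libraries cannot be seen here, which bears on abundant genes such as H2-K1, H2-D1 and B2m. The authors deposited 1 table of TPM values, with 1 column per library. HISAT2, Bowtie2, RSEM and DESeq2 are named without role or version per the submitters' processing notes, with the build GRCm38.p6 for 8 of the 9 samples. Read depth is unknown from TPM, so no counting interval is given.

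Here log2(TPM + 1) was fitted with limma 3.58.1 (R 4.3.3, Python 3.11.15) over 3 groups, with 6 residual degrees of freedom and an intensity trend, on 13991 genes at 1 TPM or more in at least 3 libraries. Tests were two-sided, adjusted by Benjamini-Hochberg over those genes, at a threshold of 0.05. The 9 members other than H2-Q8 were tested. The correction subtracts per library natural splines (5 degrees of freedom each) in length and GC content, and 161 tested genes without a length were left out. Fits were tested on simulated data. Alternatives are log2(TPM + 0.1), no filter, a filter at a mean of 5 TPM, scaling by median ratios, quantile normalization, the correction, 2 groups alone, a replicate block, no intensity trend, robust eBayes and each library left out.

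The members, the pathway and marker lists and the motifs were chosen with earlier results of these data known. Genes outside the set were named by rule: in each list up to 4 called genes with the smallest p in each comparison, plus 13 fixed genes, of which 1 is not reported here. Not every gene that qualified is printed. Ifng, H2-Q9, Irf7, Erap1, Lnpep, Fcgrt, Klra7 and the further heavy chains of the closing part were named after their values were seen.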

Additional observations from a re-analysis of the deposited data

Results flagged for a closer look

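The response of Psmb8 differed between the exposures: its log2(TPM + 1) difference between long-term and short-term PM2.5 was -0.53 ± 0.16 (adjusted p = 0.0193, limma), with all 3 long-term libraries below all 3 short-term libraries. It was the only gene of the 9 tested with such a call as deposited, and it stayed past the threshold in 19 of 21 alternatives, over which it ran from -0.91 to -0.42. The others were the fits without long-term library 2 (adjusted p = 0.0651, limma) and 3 (0.0666). Neutrophil marker genes, summed, were also higher in the short-term libraries (958 to 1477 TPM) than in the long-term ones (338 to 557 TPM), and their part in the difference was not tested.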

How the results depend on the processing

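Psmb8 after short-term exposure kept its direction and call in 21 of 21 alternatives, Tap1 in 19 and Tapbp in 18. Calls among the 9 members moved from 3 to 6 (median-ratio scaling), 5 (quantile normalization) and 5 (corrected, without short-term library 1) for short-term against PBS. For long-term against short-term they moved from 1 to 4 (median-ratio scaling), 2 (quantile normalization), 4 (corrected, with or without the replicate block) and 3 (corrected, without short-term library 1), and for long-term against PBS from 0 to 1 (2 groups alone). Leaving out each library gave 0 to 0 long-term, 1 to 4 short-term and 0 to 2 calls between exposures. For short-term against PBS, calls among all genes were 7268 as deposited, 7306 (median-ratio scaling), 7222 (quantile normalization) and 6419 (corrected, without short-term library 1). Between exposures they were 7061 as deposited, 6518 (median-ratio scaling), 5973 (quantile normalization), 5739 (corrected), 5177 (corrected with the replicate block) and 5281 (corrected, without short-term library 1).

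In the long-term comparison with PBS, calls among the other pathway genes moved from 6 to 13 (corrected), 18 (2 groups alone) and 22 (corrected, without short-term library 1). Calls among all genes moved from 1571 to 920 (mean TPM of at least 5), 2583 (quantile normalization), 3524 (corrected), 3881 (2 groups alone), 2975 (corrected with the replicate block) and 5009 (corrected, without short-term library 1). Leaving out each library gave 3 to 15 and 853 to 3157 calls there, 38 to 63 and 5123 to 8925 for short-term against PBS, and 31 to 62 and 4621 to 9168 between exposures. In the long-term comparison 15 and 3157 came without short-term library 1, and 3 and 853 without PBS library 1.

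Signs turned only for differences that were not called as deposited. Against PBS in the long-term group B2m was -0.058 (corrected, with the block, and without short-term library 1), and under quantile normalization Psmb9 was 0.0030 and Nlrc5 -0.056. Against PBS in the short-term group, quantile normalization gave H2-K1 -0.42, H2-D1 -0.22, B2m -0.31 and Psmb9 0.060, and median-ratio scaling gave Psmb9 0.31. The corrected values were H2-K1 -0.027, B2m -0.16 and Nlrc5 0.34 with or without the block, and -0.11, -0.20 and 0.28 without short-term library 1. Between exposures, median-ratio scaling gave H2-D1 -0.34, B2m -0.26 and Psmb9 -0.35, and quantile normalization gave H2-K1 0.13, Psmb9 -0.057 and Nlrc5 -0.034. Corrected values were H2-D1 -0.11 and Nlrc5 -0.17 with or without the block, and -0.036 and -0.11 without short-term library 1. The cause was not tested.

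Leaving out each library gave these ranges where a sign turned: long-term H2-K1 -0.30 to 0.026, Psmb9 -0.11 to 0.083 and Nlrc5 -0.046 to 0.30. Short-term ranges were H2-K1 -0.050 to 0.27, B2m -0.016 to 0.15 and Psmb9 -0.29 to 0.17. Between exposures they were H2-D1 -0.054 to 0.14 and Psmb9 -0.17 to 0.28.

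Libraries of the same number did not deviate together (correlations -0.29 to 0.26). Since deviations sum to 0 within each group of 3, this cannot decide whether the numbers pair libraries, which is not known. With the replicate block 0, 3 and 1 members were called for long-term against PBS, short-term against PBS and between exposures, as without it. The fits rest on 3 libraries a group and an unknown read depth.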

Other observations

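Long-term library 3 stood apart in its class I heavy chains. It held the lowest or the highest value of the 9 libraries in 12 of the 16 tested heavy chain genes named H2, without H2-Q8, against 11.2% of all tested genes. PBS library 3 did so in 6 (16.3% of all tested genes). Short-term library 3 did so in 5, each time as the lowest (4.85% of all tested genes at either extreme). In long-term library 3 H2-Bl was at 140 TPM (41.1 to 86.9 in the other 8), H2-Q9 at 20.0 (0 to 6.13), H2-Q1 at 21.4 (3.58 to 10.9) and H2-M2 at 11.2 (0.28 to 2.95). The same library had the lowest H2-K1 (1692 TPM), the highest H2-D1 (1799.8 TPM) and an H2-K1 to H2-D1 ratio of 0.940, where the other 8 ran from 1.61 to 1.91. B2m in that library, 1504 TPM, was not an extreme of the 9. These values were picked after they were seen and carry no test.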
